A study of Mus musculus with 6 samples.

Results

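The Wnt pathway genes described here are the ligands, their secretion factors, the receptors, the secreted antagonists, the R-spondin module, the dishevelled proteins and the TCF/LEF factors. They were chosen by symbol from a table of FPKM per gene, with the row of highest mean kept per symbol, which gave 51 genes out of 25901 rows. FPKM scales the fragments of a gene by its transcript length and by the size of the library, so levels of different genes can be set side by side. RNA came from 3 hearts of SRAKO mice, set against 3 hearts of wild-type (WT) mice. Sra1 encodes SRA, an RNA that acts as a coactivator of steroid receptors. The mice of both genotypes had received isoproterenol, an agonist of beta-adrenergic receptors that enlarges the heart, for 4 weeks. Untreated hearts were not analysed here. Strain, sex, age, litter and the part of Sra1 that was altered are not given in the sources used here, and the labels number the samples without naming the animals, so p-values measure the spread between these samples.

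Wnt proteins are secreted, lipid-modified signals. At the cell surface they bridge a Frizzled receptor and the co-receptor Lrp5 or Lrp6, and the signal passes through dishevelled proteins to stop the destruction of beta-catenin, which then binds TCF/LEF factors at target genes. Other branches act through Frizzled receptors without beta-catenin, on cell polarity and calcium. In the adult heart the pathway is known as largely quiet, and it is studied in hypertrophy, fibrosis and repair.

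Sra1 had 1.96, 1.78 and 2.05 FPKM in SRAKO2365, SRAKO2371 and SRAKO2372, against 4.40, 4.23 and 6.31 FPKM in WT2368, WT2378 and WT2379, so Sra1 was lower in each SRAKO heart (1.93 ± 0.139 FPKM in SRAKO and 4.98 ± 1.15 FPKM in WT, SD, n = 3 each). Limma gave this difference a Benjamini-Hochberg adjusted p of 0.258. Markers of ventricular cardiomyocytes, the bulk of the heart's muscle, summed to between 11513 and 11596 FPKM in SRAKO hearts and between 10546 and 12974 FPKM in WT hearts, with 0 of 8 markers under a mean FPKM of 0.1. WT2368 and SRAKO2371 stood apart through ribosomal RNA, nuclear and mitochondrial. The ribosomal RNA row AY036118 was at 3003 FPKM in SRAKO2371 against 273 and 512 in the other SRAKO hearts, and at 6242 FPKM in WT2368 against 409 and 595 in the other WT hearts. The mitochondrial ribosomal RNA mt-Rnr1 was at 1896 FPKM in SRAKO2371 against 879 and 1122 in the other SRAKO hearts, and at 4548 FPKM in WT2368 against 963 and 1061 in the other WT hearts. Low values rose in steps: for RNAs with 1 transcript, FPKM multiplied by length had a most frequent value equal to an FPKM between 0.0434 and 0.0687 for an RNA of 1 kb. This step, the unit used below for depth, was largest in WT2368 at 1.58 times that of SRAKO2372, which makes WT2368 the shallowest library if 1 unit is 1 sequenced fragment. Of 43 values of up to 12 units among the Wnt genes with 1 transcript, 28 lay within 0.05 of a whole unit and 36 within 0.05 of a whole unit or of the midpoint between units. That reading of the unit was not tested, so no count test was run.

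Of the 51 genes, 22 were at or above 1 FPKM in 3 or more hearts and were tested, and 29 were not. Limma called 0 of the 22 after Benjamini-Hochberg adjustment over all 10201 tested rows (adjusted p = 0.999 for each), against 0.0196% of all rows. At an unadjusted p under 0.05 there were also 0, where 3.46% of all rows lay (1.90% higher and 1.56% lower in SRAKO), and the smallest unadjusted p of the 22 was 0.149. In 0 of the 22 did the genotypes separate without overlap, against 8.05% of all rows (4.28% higher and 3.76% lower). In 0 of the 22 was the highest heart at least 3 times the lowest, against 3.99% of all rows. Differences below are given as SRAKO minus WT in log2(FPKM + 1), a scale on which a gene of low FPKM shows less than its full change. There were 13 genes above and 9 below WT, where 46.5% of all rows lay below, and the median log2 difference was 0.034, against 0.0094 over all tested rows. An exact permutation test over the hearts cannot go below p = 0.1 with 3 against 3.

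**Figure D1:**
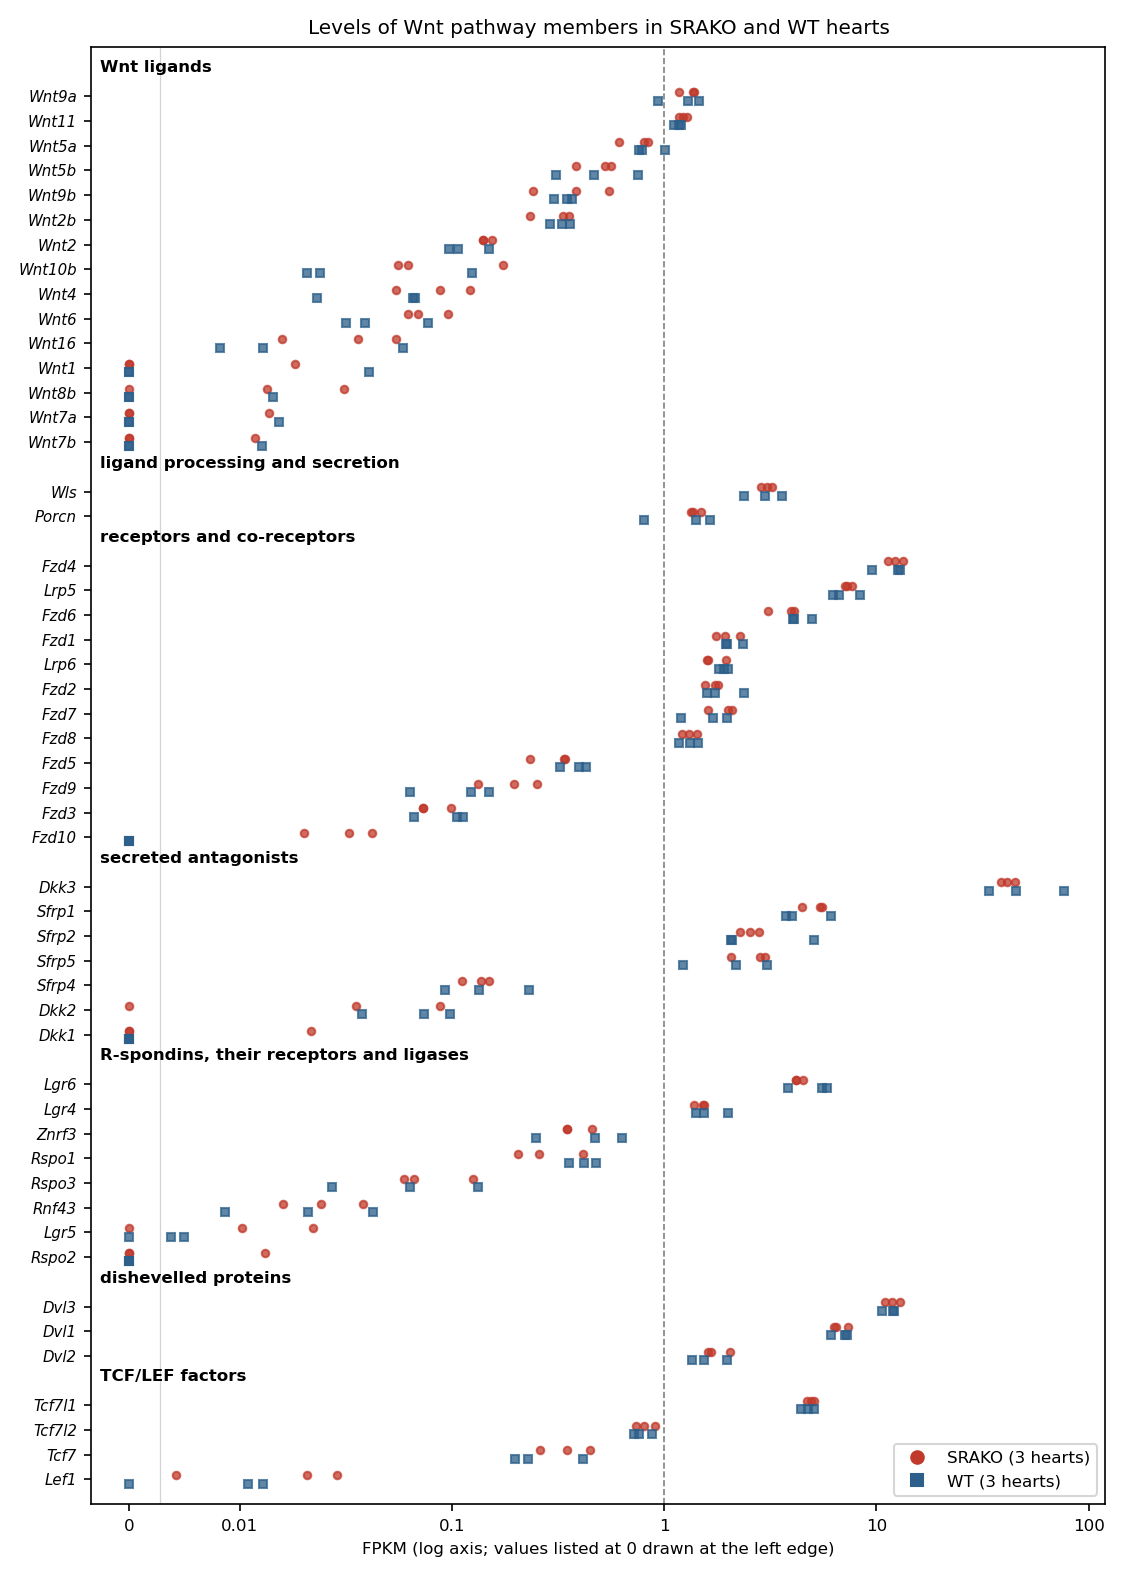
Level of each of the 51 Wnt pathway genes in every heart, in FPKM on a log axis, grouped by role and ordered by mean, with SRAKO hearts as red circles above WT hearts as blue squares. The dashed line marks an FPKM of 1, values listed at 0 sit at the left edge, and the points of the 2 genotypes are intermixed for all 22 tested genes.

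The promoters shown here are those of the pair of ligands that passed the filter and of the other ligand that holds a TCF/LEF motif, the letters bound by the pathway's own end-point factors. RefSeq sequences on GRCm38.p6 covered 250 bases before to 50 after an annotated start, of which a gene can have more than 1. They matched 35 of the 51 genes by symbol, with 44 promoters. The motif searched was CTTTGAT on either strand, its reverse complement being ATCAAAG. It occurred in 2 of the 44 promoters (4.55%), against 3.73% of all 32851 promoters of that length, and the matches are given in capitals. In Wnt11 the match begins 51 bases before the start, and in the Wnt5b promoter shown 71 bases before it. The Wnt9a promoter held no match.
Wnt11, chr7:98834862-98835161, plus strand: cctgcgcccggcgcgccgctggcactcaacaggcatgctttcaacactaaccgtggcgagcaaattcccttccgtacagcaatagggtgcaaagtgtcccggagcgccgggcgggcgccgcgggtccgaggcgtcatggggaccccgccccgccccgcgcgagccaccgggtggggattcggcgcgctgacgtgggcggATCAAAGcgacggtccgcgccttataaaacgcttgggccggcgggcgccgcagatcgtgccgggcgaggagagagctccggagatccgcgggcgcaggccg
Wnt9a, chr11:59306680-59306979, plus strand: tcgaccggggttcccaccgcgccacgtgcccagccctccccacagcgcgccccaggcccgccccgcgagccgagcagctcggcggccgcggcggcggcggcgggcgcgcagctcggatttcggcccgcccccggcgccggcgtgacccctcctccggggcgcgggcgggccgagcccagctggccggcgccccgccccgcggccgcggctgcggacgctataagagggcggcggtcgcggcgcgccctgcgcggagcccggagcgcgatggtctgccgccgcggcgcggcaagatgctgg
Wnt5b, chr6:119449337-119449636, minus strand: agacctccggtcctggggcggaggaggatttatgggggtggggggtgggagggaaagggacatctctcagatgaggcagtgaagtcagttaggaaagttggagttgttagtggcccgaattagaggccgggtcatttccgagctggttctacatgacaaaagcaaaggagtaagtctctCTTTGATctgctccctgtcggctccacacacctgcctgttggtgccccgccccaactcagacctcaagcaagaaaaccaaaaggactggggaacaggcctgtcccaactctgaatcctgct
Wnt5b has 2 more promoters in the table and Wnt11 has 1 more, none with the motif. The 44 promoters had a median G+C content of 67.0% and a median ratio of observed to expected CpG of 0.738, against 52.7% and 0.384 over all promoters. For the 15 promoters of tested genes these were 66.7% and 0.763, and for the 29 promoters of genes that did not pass the filter 67.3% and 0.634. A match to these letters describes the sequence and says nothing of binding in these hearts.

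Wnt9a and Wnt11 were the most abundant ligands, and neither differed between genotypes beyond the spread between hearts. Wnt9a, a ligand known from joint and cartilage development, had 1.17, 1.38 and 1.37 FPKM in SRAKO hearts and 0.935, 1.29 and 1.46 FPKM in WT hearts. WT2368 was the lowest and WT2379 the highest of all 6. Wnt11, which acts mainly without beta-catenin and is needed for heart development, had 1.22, 1.28 and 1.17 FPKM in SRAKO hearts and 1.17, 1.11 and 1.2 FPKM in WT hearts, so it was the steadiest of the 11 ligands above 0 in every heart, with a highest value only 1.16 times the lowest. Its log2 difference was 0.044 with a 95% interval from -0.14 to 0.23, and that of Wnt9a was 0.055 (-0.20 to 0.31). On GRCm38 in GENCODE M21, Wnt9a spans chromosome 11 from 59306928 to 59333552 and Wnt11 chromosome 7 from 98835112 to 98855195, both on the plus strand. Exons of Wnt11 overlap those of Gm8398 on the opposite strand, and without strand information in the labels their reads cannot be told apart. The same holds for 10 more of the 51 genes, among them Wnt5a (Gm2670), Wnt7b (AU022754), Fzd6 (Gm26704), Fzd5 (Gm38058), Rspo3 (Gm48159), Tcf7l1 (Gm15401) and Lef1 (Gm43352), besides Sfrp2, Dvl1 and Dvl2 below.

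Wnt5a, the ligand best known for signalling without beta-catenin, lay just under the filter. It had 0.842, 0.613 and 0.806 FPKM in SRAKO hearts against 0.763, 1.01 and 0.786 in WT hearts. Its close relative Wnt5b had 0.528, 0.561 and 0.384 FPKM in SRAKO hearts against 0.310, 0.752 and 0.469 in WT hearts. The genotypes overlapped for both, and for both WT2378 was the highest heart. Wnt9b and Wnt2b, with means over all hearts of 0.366 and 0.317 FPKM, ranged from 0.240 to 0.552 and from 0.233 to 0.361. Wnt2, expressed in the heart-forming region of the embryo, had 0.140, 0.140 and 0.154 FPKM in SRAKO hearts against 0.107, 0.15 and 0.0966 in WT hearts, which stands for 6.95, 6.03 and 7.98 units against 3.50, 6.0 and 4.51 units.

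The remaining ligands were barely detected. Wnt10b, Wnt4, Wnt6 and Wnt16 had means over all hearts between 0.0310 and 0.0767 FPKM. Wnt10b was at 8.53, 2.64 and 2.86 units in SRAKO hearts against 4.02, 0.947 and 0.957 units in WT hearts, so a few units set its level in each library. Wnt1, Wnt7a, Wnt7b and Wnt8b were listed at 0 in 3 or 4 of the 6 hearts and did not pass 2.01 units in any. Summed over all 15 ligands, FPKM was 4.94, 5.09 and 4.81 in SRAKO hearts and 4.23, 5.10 and 4.91 in WT hearts. Wnt3, Wnt3a, Wnt8a and Wnt10a were not analysed here, because no FPKM row carried their symbols.

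Both genes for making ligands ready to leave the cell were tested, and neither passed the test. Porcn encodes the acyltransferase that attaches the lipid to Wnt proteins. It had 1.49, 1.37 and 1.34 FPKM in SRAKO hearts and 0.807, 1.42 and 1.64 FPKM in WT hearts (log2 difference 0.087, 95% interval -0.24 to 0.42). Wls carries the finished ligand to the cell surface and had 2.84, 3.24 and 3.05 FPKM in SRAKO hearts, against 2.37, 2.99 and 3.58 FPKM in WT hearts (0.033, -0.26 to 0.32). For both genes the 3 SRAKO values lay between the lowest WT heart, WT2368, and the highest, WT2379.

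Fzd4 was the most abundant Frizzled receptor and Lrp5 the most abundant co-receptor. Fzd4, a receptor for Wnt ligands and for norrin in blood vessels, had 12.3, 11.3 and 13.4 FPKM in SRAKO hearts and 9.50, 12.7 and 12.9 FPKM in WT hearts. WT2368 was the lowest heart and SRAKO2372 the highest, and the genotypes overlapped (12.3 ± 1.02 FPKM in SRAKO and 11.7 ± 1.92 FPKM in WT, SD, n = 3 each, log2 difference 0.079, 95% interval -0.24 to 0.39). Its mean over the hearts, 12 FPKM, was followed among Frizzleds by 4.03 for Fzd6 and 2.04 for Fzd1. It spans chromosome 7 from 89404355 to 89413134 on the plus strand. Lrp5 had 7.13, 7.71 and 7.24 FPKM in SRAKO hearts, all inside the WT values of 6.22, 8.34 and 6.69 FPKM. Lrp6, its paralog, was lower in level, with 1.61, 1.59 and 1.95 FPKM in SRAKO hearts against 1.92, 1.81 and 1.99 FPKM in WT hearts (-0.099, -0.31 to 0.11).

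Fzd6, a Frizzled known for tissue polarity, had the smallest p of all Wnt genes tested. It had 3.94, 3.07 and 4.07 FPKM in SRAKO hearts, against 4.06, 4.07 and 4.96 FPKM in WT hearts. SRAKO2371 was the lowest heart and WT2379 the highest, and SRAKO2372 was level with the lower WT pair, so the genotypes overlapped (3.70 ± 0.543 FPKM in SRAKO and 4.36 ± 0.519 FPKM in WT, SD, n = 3 each). The log2 difference was -0.19 with a 95% interval from -0.47 to 0.087 (limma, unadjusted p = 0.149, Benjamini-Hochberg adjusted p = 0.999). Fzd7 pointed the other way, with 2.08, 1.61 and 2.0 FPKM in SRAKO hearts and 1.21, 1.69 and 1.98 FPKM in WT hearts (0.15, -0.16 to 0.45).

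Fzd1, Fzd2 and Fzd8 lay between 1.17 and 2.37 FPKM in every heart. Their log2 differences were -0.052, -0.095 and 0.0034. In each of the 3 genes WT2379 was the highest heart. Fzd5, Fzd9 and Fzd3 had means over all hearts of 0.343, 0.152 and 0.0883 FPKM and did not pass the filter, and their genotypes overlapped. Fzd10 had 0.0421, 0.0328 and 0.020 FPKM in SRAKO hearts and was listed at 0 in the 3 WT hearts. It was the only one of the 29 untested genes whose genotypes did not overlap, where 7.0% of all 15700 untested rows did not. Those SRAKO values stand for no more than 3.01, 2.03 and 1.5 units, and the same number of units stands for a higher FPKM in WT2368 than in any other heart. With no filter on low values Fzd10 had an unadjusted p of 0.0173 and an adjusted p of 0.932 in limma. No fold was taken against a group listed at 0.

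**Figure D2:**
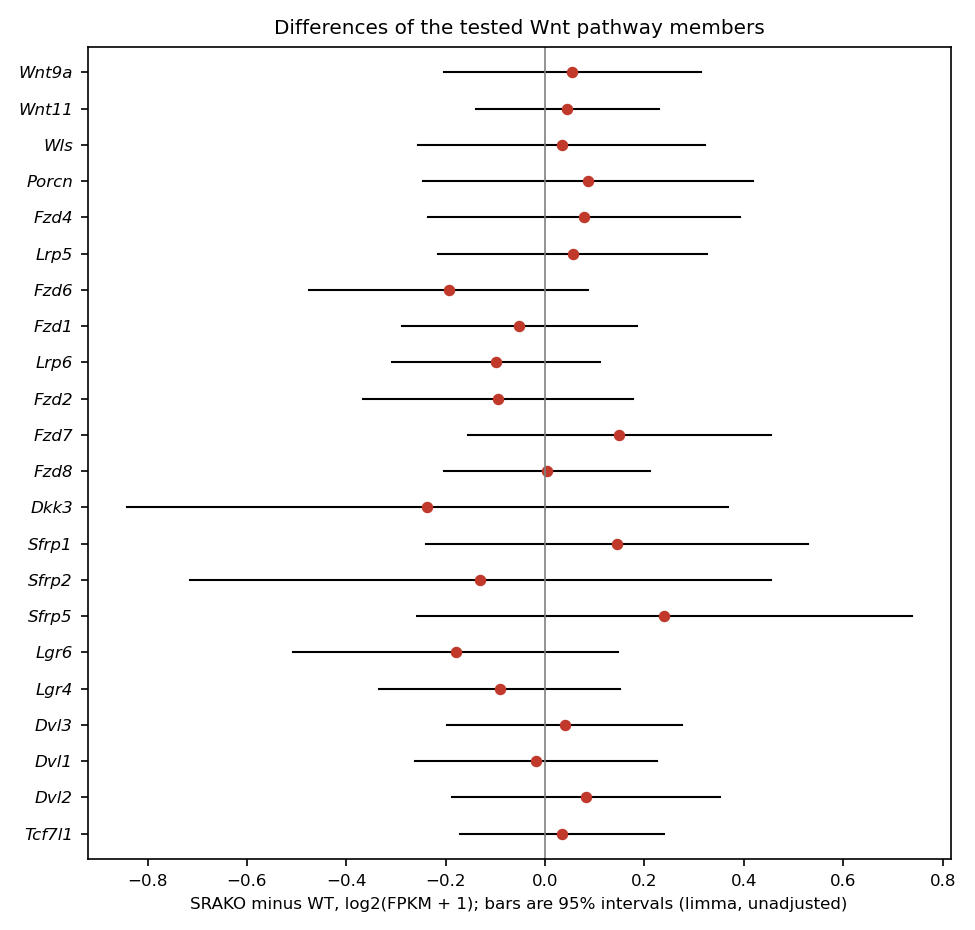
Log2 difference, SRAKO minus WT in log2(FPKM + 1), for each of the 22 tested genes (red points), with 95% intervals from limma that are not adjusted for the number of genes. All 22 intervals include 0, and the widest belong to Dkk3 and Sfrp2.

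The intervals give the size of difference that these hearts leave possible. Of the 22 genes, 19 had a 95% interval that stayed within a 1.5-fold difference in either direction on the log2(FPKM + 1) scale. For genes of low FPKM the fold left possible in FPKM itself is larger than on this scale. The 3 with wider intervals were Dkk3, Sfrp2 and Sfrp5, all secreted antagonists. Across all 22 the bounds ran from -0.84 for Dkk3 to 0.74 for Sfrp5.

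Dkk3 was the most abundant of all 51 genes. It encodes a secreted member of the Dickkopf family that, unlike Dkk1 and Dkk2, is not known as an Lrp6 blocker. It had 45, 41.1 and 38.6 FPKM in SRAKO hearts, against 34.1, 45.4 and 76.2 FPKM in WT hearts. WT2379 stood well above the other 5 hearts, and the SRAKO values lay between WT2368 and WT2378 (41.6 ± 3.23 FPKM in SRAKO and 51.9 ± 21.8 FPKM in WT, SD, n = 3 each). The log2 difference was -0.24 (95% interval -0.84 to 0.37), and it was 0.075 when WT2379 was left out (limma, unadjusted p = 0.653). Without WT2368 it was -0.49 (limma, unadjusted p = 0.0592, Benjamini-Hochberg adjusted p = 0.714). Dkk3 lies on the minus strand of chromosome 7, from 112116017 to 112159057.

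The secreted frizzled-related proteins, which bind Wnt ligands outside the cell, were led by Sfrp1. Sfrp1 had 4.45, 5.4 and 5.54 FPKM in SRAKO hearts and 3.73, 4.02 and 6.11 FPKM in WT hearts (log2 difference 0.14, 95% interval -0.24 to 0.53). Without WT2379 the difference was 0.33 (limma, unadjusted p = 0.0325, Benjamini-Hochberg adjusted p = 0.995), and without WT2368 it was 0.032 (unadjusted p = 0.856). Sfrp2, linked to fibroblasts in the injured heart, had 2.28, 2.78 and 2.53 FPKM in SRAKO hearts and 2.09, 2.06 and 5.07 FPKM in WT hearts. Sfrp1 lies on the plus strand of chromosome 8 from 23411502 to 23449632. Sfrp2 lies on the plus strand of chromosome 3 from 83766321 to 83774316, with exons that overlap Gm26771 on the opposite strand. In both genes WT2379 was the highest heart and the other pair of WT hearts the lowest.

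Sfrp5 had another order, with 2.83, 3.0 and 2.07 FPKM in SRAKO hearts and 1.23, 3.05 and 2.17 FPKM in WT hearts. It had the largest positive log2 difference of the 22 genes, 0.24 (95% interval -0.26 to 0.74), and rested on WT2368, the only heart under 2 FPKM, at 33.9 units. Markers of adipocytes, a known source of Sfrp5, summed to 25.0, 217 and 103 FPKM in SRAKO hearts and 32.1, 56 and 29.2 FPKM in WT hearts. Most of the 2 highest sums came from Ucp1 (98.9 FPKM in SRAKO2371 and 51.1 in SRAKO2372) and Cidea (63.0 and 30.4 FPKM). The part of adipocytes in the level of Sfrp5 was not tested. Sfrp4, Dkk2 and Dkk1 did not pass the filter. Sfrp4 did not exceed 0.230 FPKM or Dkk2 0.0974 FPKM in any heart, and Dkk1, a direct Lrp6 blocker, was above 0 in 1 heart, SRAKO2371, at 1.0 units.

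Atrial markers were highest in WT2379, as were Dkk3, Sfrp1 and Sfrp2, but not Sfrp5 or Sfrp4. WT2379 was the highest heart in 14 of the 22 tested genes, so this is not particular to these antagonists. Summed FPKM of the 6 atrial cardiomyocyte markers was 3511, 2980 and 3482 in SRAKO hearts and 2485, 3747 and 8442 in WT hearts. Most of each sum was Nppa alone, at 2424, 1829 and 2436 FPKM in SRAKO hearts and 1651, 2469 and 6576 FPKM in WT hearts. The sum of the 11 fibroblast markers differed less, with WT2379 the highest heart at 554 FPKM and WT2368 the lowest, at 376 FPKM. It was 519 FPKM in WT2378 and between 514 and 534 FPKM in SRAKO hearts. Gsn alone made up most of each fibroblast sum, at 320, 319 and 309 FPKM in SRAKO hearts and 192, 317 and 319 FPKM in WT hearts. Means under 0.1 FPKM were found for 0 of the 6 atrial, 0 of the 11 fibroblast and 0 of 7 epicardial and mesothelial markers. The epicardial and mesothelial sum was 3.29 to 6.32 FPKM in SRAKO hearts and 4.57 to 6.46 FPKM in WT hearts, with WT2379 again the highest heart. The part of these cells in the levels of Dkk3, Sfrp1 and Sfrp2 was not tested, and in bulk tissue fewer cells of a type and less RNA per cell cannot be told apart.

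**Figure D3:**
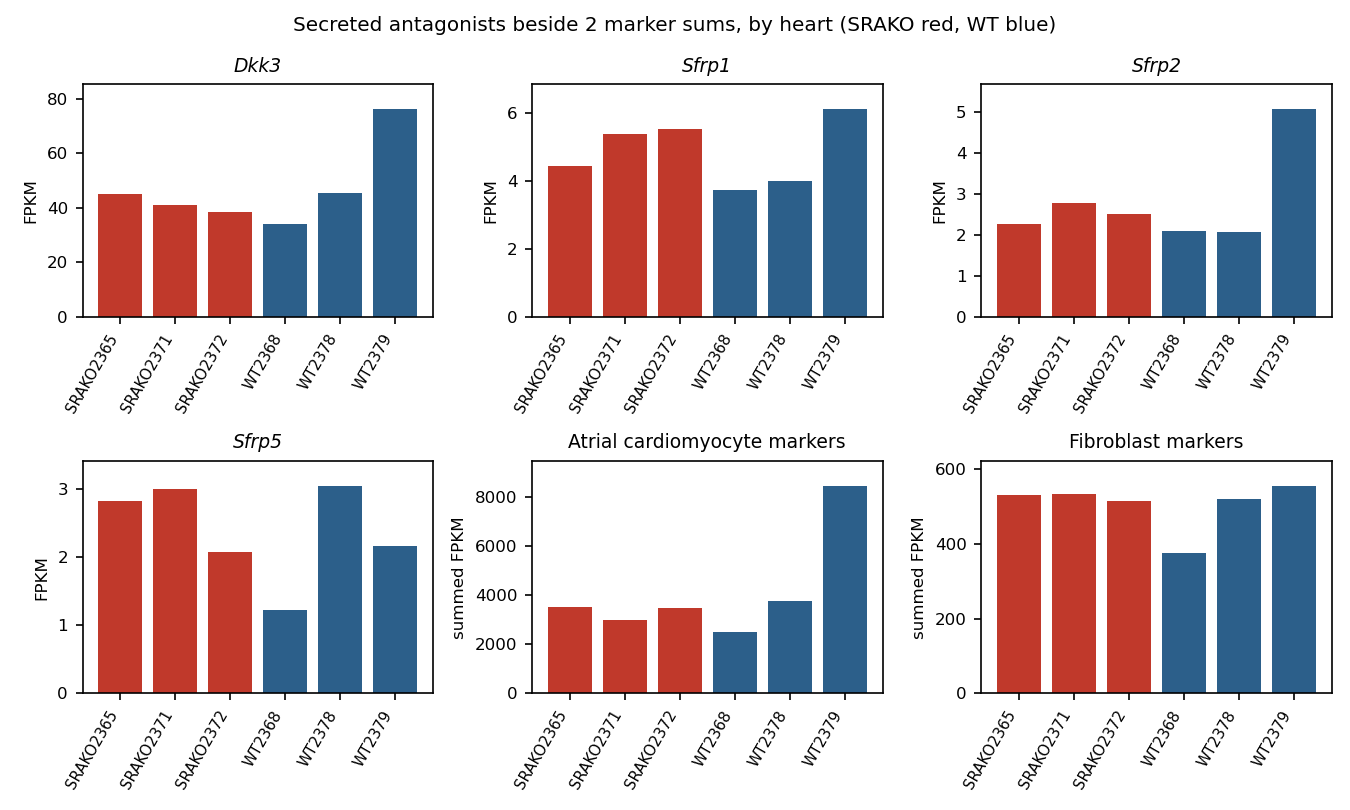
FPKM of Dkk3, Sfrp1, Sfrp2 and Sfrp5 and the summed FPKM of 6 atrial cardiomyocyte markers and 11 fibroblast markers in each heart, with SRAKO hearts in red on the left and WT hearts in blue on the right. WT2379 is the highest heart in every panel but that of Sfrp5, and WT2368 is the lowest heart in every panel but that of Sfrp2.

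R-spondins bind the receptors Lgr4, Lgr5 and Lgr6 and clear the ligases Znrf3 and Rnf43, which otherwise remove Frizzled receptors from the membrane. Lgr6, on the minus strand of chromosome 1 from 134983301 to 135105276, was the most abundant gene of this module. It had 4.19, 4.5 and 4.16 FPKM in SRAKO hearts, against 3.81, 5.52 and 5.84 FPKM in WT hearts. The SRAKO hearts clustered between WT2368 and the higher WT pair, and the log2 difference was -0.18 (95% interval -0.51 to 0.15). Without WT2368 it was -0.34 (limma, unadjusted p = 0.00507, Benjamini-Hochberg adjusted p = 0.714), and without WT2379 it was -0.084 (unadjusted p = 0.585).

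Over the whole R-spondin module, summed FPKM was 6.57, 6.52 and 6.60 in SRAKO hearts and 6.11, 7.86 and 9.05 in WT hearts. Lgr4 had 1.54, 1.38 and 1.52 FPKM in SRAKO hearts and 1.54, 1.41 and 2.0 FPKM in WT hearts (-0.092, -0.33 to 0.15). Lgr5, a marker of stem cells in other organs, was at a mean of 0.00711 FPKM over all hearts and listed at 0 in 2 of them. Among the R-spondins, Rspo1 was the most abundant at 0.257, 0.204 and 0.415 FPKM in SRAKO hearts and 0.354, 0.417 and 0.476 FPKM in WT hearts. Rspo3 lay between 0.0273 and 0.133 FPKM, and Rspo2 was above 0 only in SRAKO2372, at 1.01 units. Of the ligases, Znrf3 had 0.456, 0.347 and 0.350 FPKM in SRAKO hearts and 0.249, 0.473 and 0.631 FPKM in WT hearts, and Rnf43 did not exceed 0.0422 FPKM in any heart. The genotypes overlapped in all of these genes.

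The 3 dishevelled genes, which relay the signal inside the cell, all passed the filter, and for Dvl3 and Dvl1 the highest heart was only 1.21 times the lowest. Dvl3 had 11.9, 11 and 12.9 FPKM in SRAKO hearts and 10.6, 12 and 12.1 FPKM in WT hearts (log2 difference 0.039, 95% interval -0.20 to 0.28). Dvl1 had 6.31, 6.48 and 7.36 FPKM in SRAKO hearts and 6.09, 7.28 and 7.09 FPKM in WT hearts (-0.018, -0.26 to 0.23). Dvl2, in a row joined with the microRNA gene Mir324 and overlapping exons of Acadvl on the other strand, lay between 1.35 and 2.04 FPKM (0.083, -0.19 to 0.35). SRAKO2372 was the highest and WT2368 the lowest heart for all 3 genes. Exons of Dvl1 overlap those of Tas1r3.

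Tcf7l1, a family member best known as a repressor of target genes, was the only TCF/LEF factor to pass the filter. It had 5.05, 4.89 and 4.71 FPKM in SRAKO hearts and 4.42, 4.78 and 5.07 FPKM in WT hearts, a highest value 1.15 times the lowest (log2 difference 0.034, 95% interval -0.17 to 0.24). Tcf7l2, in a row of 17 transcripts, had 0.736, 0.807 and 0.907 FPKM in SRAKO hearts against 0.758, 0.719 and 0.880 in WT hearts. Tcf7 and Lef1, both prominent in T cells, were lower in level, with means over all hearts of 0.315 and 0.0130 FPKM. Markers of T and B cells summed to between 2.34 and 3.59 FPKM in SRAKO hearts and between 3.45 and 3.62 FPKM in WT hearts, and Cd3e, Cd3d, Cd3g, Cd8a and Ms4a1 had means under 0.1 FPKM. A large part of each sum was Trac, the only 1 of the 12 markers to pass the filter. Trac had 1.86, 1.33 and 1.22 FPKM in SRAKO hearts and 1.42, 2.23 and 1.94 FPKM in WT hearts.

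The WT hearts spread around the SRAKO hearts. In 11 of the 22 genes all 3 SRAKO values lay inside the WT range, against 33.8% of all tested rows, and in 0 of 22 did the WT values lie inside the SRAKO range, against 10.9% of all rows. WT2379 was the highest heart in 14 of the 22 genes, against 26.5% of all rows, and WT2368 the lowest in 14 of 22, against 44.9% of all rows. When each heart was rescaled by its median ratio to the other hearts, where WT2368 had the scale factor farthest from 1, 0.913, WT2379 was the highest in 10 of 22 (16.7% of all rows) and WT2368 the lowest in 7 of 22 (24.4% of all rows), while WT2378 was the lowest in 8 (16.8% of all rows). The 22 genes were chosen by name, and no test was made of these counts.

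**Figure D4:**
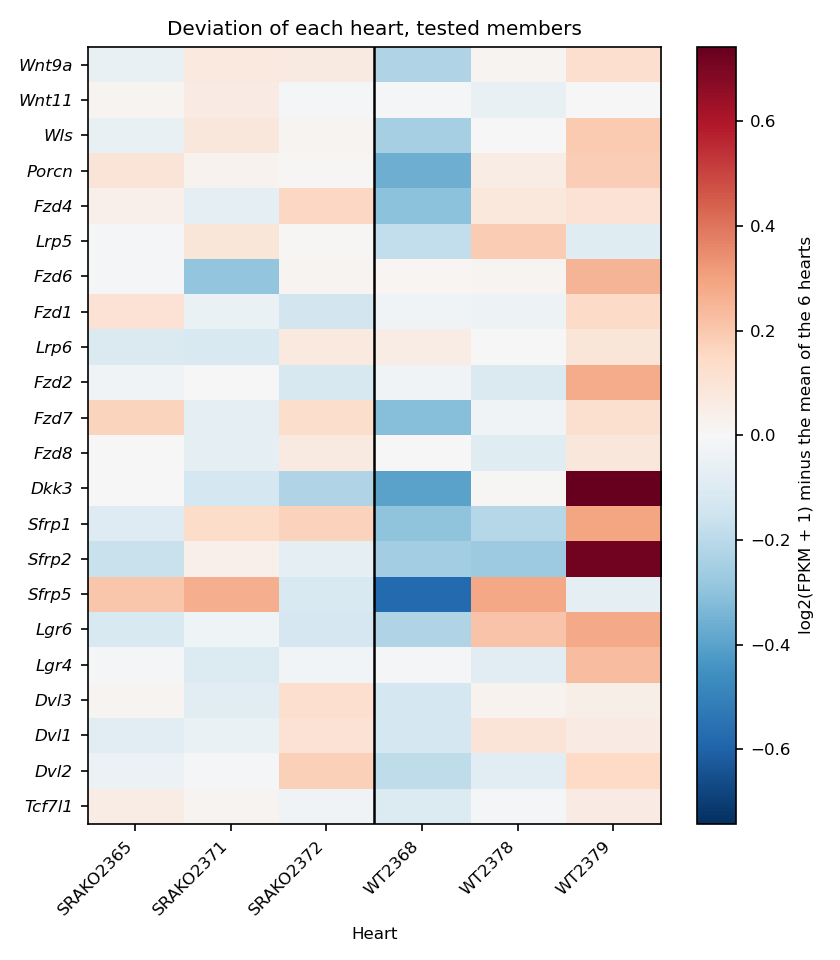
Deviation of each heart from the mean of the 6 hearts, in log2(FPKM + 1), for the 22 tested genes, with SRAKO hearts left of the black line and WT hearts right of it (red above the mean, blue below). The strongest colours are in WT columns: Dkk3 and Sfrp2 high in WT2379, and Sfrp5 and Dkk3 low in WT2368.

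Other genes of the pathway were followed in 5 lists with 95 genes present in the table, of which 65 were tested. Limma called 1 of the 65 after Benjamini-Hochberg adjustment, against 0.0196% of all rows. At an unadjusted p under 0.05 stood 3, each lower in SRAKO, against 3.46% of all rows (1.56% lower). The median log2 difference of the 65 was -0.033, with 27 above and 38 below WT. The genotypes did not overlap in 4 of the 65, 1 higher and 3 lower, against 8.05% of all rows. The called gene was Apc, the scaffold of the complex that destroys beta-catenin. Its call was already known when the lists were fixed, so the count of called genes cannot be weighed against the share of all rows. Apc was also among the 3 genes at an unadjusted p under 0.05 in limma and among the 3 lower without overlap. Those counts therefore cannot be weighed against all rows either. Apc reached 1 FPKM in the 3 WT hearts only, so it passed the filter through the genotype where it was higher. Apc had 0.0958, 0.15 and 0.237 FPKM in SRAKO hearts against 1.63, 1.41 and 1.62 FPKM in WT hearts (log2 difference -1.14, limma with Benjamini-Hochberg adjustment, adjusted p = 0.0143). This call ended with a pseudocount of 0.1, without the filter and with a term for WT2368 and SRAKO2371. It also ended when any WT heart was left out, since Apc then no longer had 3 hearts at 1 FPKM and was not tested.

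In the list of the destruction complex and beta-catenin, 1 of 11 tested genes, the already known Apc, was called lower and 0 higher. Ctnnb1, beta-catenin itself, in a row with Mir7090, had 25.6, 15.8 and 14.0 FPKM in SRAKO hearts and 22.3, 25.4 and 25.6 FPKM in WT hearts. SRAKO2365 was level with the WT hearts and the other pair of SRAKO hearts below them (log2 difference -0.43, unadjusted p = 0.0722 in limma). Tnks2, a tankyrase that destabilises axin, had a log2 difference of -0.12, and Gsk3a, a kinase of the complex, had 37.9, 38.2 and 38.8 FPKM in SRAKO hearts against 30.9, 36.8 and 37.5 FPKM in WT hearts, without overlap (0.13, unadjusted p = 0.270).

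Of 14 tested nuclear partners of beta-catenin 0 were called, 7 lay above and 7 below WT, and 1 had an unadjusted p under 0.05. It was Hipk2, a kinase that phosphorylates TCF factors, at 2.51, 2.13 and 2.74 FPKM in SRAKO hearts and 3.68, 3.68 and 4.08 FPKM in WT hearts (log2 difference -0.48, limma unadjusted p = 0.00150, adjusted p = 0.999). Log2 differences were 0.16 for Pygo1 and 0.18 for Bcl9, which join beta-catenin to chromatin, and -0.14 for the acetyltransferase Ep300.

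Feedback and target genes of the pathway gave 0 calls among 10 tested, with 3 above and 7 below WT. Ccnd2, a cyclin of cell cycle entry, had 6.86, 5.25 and 6.63 FPKM in SRAKO hearts and 7.76, 7.06 and 8.84 FPKM in WT hearts, without overlap (log2 difference -0.30, limma unadjusted p = 0.0475, adjusted p = 0.999). Log2 differences were 0.22 for Tbx3 and -0.23 for Snai2, both transcription factors, and -0.14 for the cyclin Ccnd1. Axin2, the feedback gene most often used as a readout of beta-catenin activity, was named after its values were seen and lay under the filter. Axin2 had 0.743, 0.590 and 0.992 FPKM in SRAKO hearts against 0.711, 0.814 and 0.518 in WT hearts, and the genotypes overlapped.

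Genes of planar polarity and other Wnt receptors gave 0 calls and 0 at an unadjusted p under 0.05 among 14 tested in limma, with 5 above and 9 below WT. Daam1, a formin downstream of dishevelled, had the smallest p, with 4.47, 3.77 and 4.14 FPKM in SRAKO hearts and 4.70, 4.41 and 5.69 FPKM in WT hearts. Mapk8 (the kinase JNK1), the receptor Ryk and the GTPase Rac1 had log2 differences of -0.11, -0.10 and 0.64. Rac1 was at 30.5, 31.0 and 7.06 FPKM in SRAKO hearts and 6.4, 7.78 and 31.8 FPKM in WT hearts, in 2 levels that cut across the genotypes.

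The other extracellular modulators gave 0 calls and 0 at an unadjusted p under 0.05 among 16 tested in limma, with 10 above and 6 below WT. Wif1, a secreted Wnt inhibitor, had 1.59, 2.18 and 1.49 FPKM in SRAKO hearts and 0.849, 1.79 and 0.944 FPKM in WT hearts (log2 difference 0.34, unadjusted p = 0.0855). Only WT2378 overlapped the SRAKO hearts. Igfbp4, which binds Lrp6 and Frizzled receptors, had 23.7, 25.0 and 26.6 FPKM in SRAKO hearts against 18.9, 23.5 and 24.2 FPKM in WT hearts, a difference of 0.18. Log2 differences were 0.26 for Adgra2, a receptor that works with Reck in Wnt7 signalling, and 0.14 for the glypican Gpc3.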

How the data were processed

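RNA of 3 SRAKO and 3 WT hearts was sequenced after selection with oligo(dT) beads, per the labels' protocols. The authors deposited FPKM values per gene row, 1 column per heart. The submitters' processing notes name StringTie 1.3.4d, HISAT2 2.0.4, cutadapt 1.9 and edgeR, with no roles, and the human build hg38, although the identifiers are of mouse genes. Of 81263 Ensembl transcript identifiers, 99.6% matched GENCODE M21 (GRCm38), from which positions were taken. Values were tested as log2(FPKM + 1) with limma 3.58.1 in R 4.3.3, by genotype with a variance trend, over all rows with FPKM of at least 1 in at least 3 hearts, two-sided. P-values were adjusted by Benjamini-Hochberg with a threshold of 0.05. Groups came from the sample titles. The Wnt genes and all lists were chosen with earlier results of these data known.

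Named by rule were the 2 tested genes of each role with the highest mean, any with an unadjusted p under 0.05, no overlap or a highest heart at least 3 times the lowest, Sra1, Apc, and up to 4 genes per pathway list by smallest p. Other Wnt genes are named as members. The code was tested on simulated data made from the 10201 rows of SRAKO against WT, with 200 rows of mean log2(FPKM + 1) above 2 changed in each of 20 draws. The changed rows were split evenly over changes of 1.5-, 2-, 4- and 8-fold. Of rows changed 1.5-fold 45.6% were called, of rows changed 2-fold 83.3%, and of rows left as drawn 0.0793%. At 4-fold 97% and at 8-fold 99% were called, and such strong changes can ease the adjusted threshold for weaker ones. Spread was drawn for each row apart, without shifts shared by a heart. These shares therefore do not give the sensitivity for the Wnt genes. Alternatives were another pseudocount, other filters, rescaling by median ratio, array weights, no variance trend, summed rows, leaving out each heart, and leaving out or modelling the pair with most ribosomal RNA.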

Additional observations from a re-analysis of the deposited data

How the results depend on the processing

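Limma with Benjamini-Hochberg adjustment called 0 of the Wnt genes tested under every alternative run, which were 22 genes, except 6 with the filter at an FPKM of 5 and 51 without the filter. Over all rows it called 2, but 1 with a pseudocount of 0.1, 0 without the filter, 1 with a filter at an FPKM of 5, 0 without both WT2368 and SRAKO2371, 0 with a term for that pair, and 0 to 6 with each heart left out in turn. The other pathway genes called numbered 1, but 0 under each of those settings, and 0 to 1 with each heart left out. That gene, Apc, was not tested with the filter at 5, without the pair or without any WT heart. Wnt genes at an unadjusted p under 0.05 in limma numbered 0, but 1 without the filter (Fzd10) and with array weights (Lgr6). They also numbered 1 without both WT2368 and SRAKO2371 (Lgr6), and 0 to 1 with each heart left out. Over all tested rows that level was reached by 353 of 10201 in the main fit and 919 of 25901 without the filter. With array weights it was 675 of 10201, and without both WT2368 and SRAKO2371 649 of 9896. The single hearts whose omission gave 1 Wnt gene were WT2368 (Lgr6) and WT2379 (Sfrp1). Without each in turn, 684 of 10065 and 346 of 10035 rows were at that level. The median log2 difference of the tested Wnt genes was 0.034, but -0.033 with array weights and 0.072 without WT2379. It was -0.064 without WT2368 or without both WT2368 and SRAKO2371. Over all tested rows the median was 0.0094, but -0.022 with array weights, -0.037 without WT2368, -0.033 without that pair and 0.037 without WT2379.

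Signs of single genes turned under some alternatives. With array weights Wnt9a was at -0.033, Wls -0.077, Porcn -0.033, Fzd4 -0.0022 and Tcf7l1 -0.0021. Without both WT2368 and SRAKO2371, Wnt9a was at -0.067, Wls -0.12, Porcn -0.064, Lrp5 -0.051, Sfrp1 -0.0010 and Tcf7l1 -0.010. With each heart left out in turn, the log2 differences ran from -0.044 to 0.13 for Wnt9a, -0.081 to 0.14 for Wls, -0.074 to 0.20 for Porcn, -0.054 to 0.15 for Fzd4, -0.021 to 0.16 for Lrp5, -0.49 to 0.075 for Dkk3, -0.16 to 0.00018 for Lgr4, -0.016 to 0.090 for Dvl3, -0.087 to 0.025 for Dvl1 and -0.0094 to 0.073 for Tcf7l1. Over the same settings Sfrp1 ran from 0.032 to 0.33, Lgr6 from -0.34 to -0.084 and Wnt11 from 0.026 to 0.062. The cause of these shifts was not tested. No paired analysis was possible because the labels give no litter and no pairing of the hearts.

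In simulated data limma called 45.6% of rows changed 1.5-fold, among rows of mean log2(FPKM + 1) above 2, and no row of lower mean was changed there. Stronger changes were present in the same draws, and shifts shared by a heart were not simulated, so this share does not carry over to the Wnt genes. In the hearts themselves Sra1, at 38.8% of WT in SRAKO, was not called. At the depth of these libraries, 6 of the 23 Wnt genes with 1 transcript stayed under 3 units in every heart. Each of the 6 was above 0 in at least 1 heart. No limit of detection was tested, so these values do not settle whether such genes are expressed or differ by genotype.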
